A study of Saccharomyces cerevisiae with 8 samples.

Results

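Ribonucleotide reductase of budding yeast and its regulators were followed through 8 genes, taken by name from 5449 named genes measured on Affymetrix arrays: the large subunit genes *RNR1* (YER070W) and *RNR3* (YIL066C), the small subunit genes *RNR2* (YJL026W) and *RNR4* (YGR180C), the inhibitor genes *SML1* (YML058W) and *HUG1* (YML058W-A), the kinase gene *DUN1* (YDL101C) and the repressor gene *RFX1* (YLR176C). Each of the 8 genes was measured by 1 probe set, so none had to be chosen among several, and no filter on low values was applied. The study compared a *Saccharomyces cerevisiae* strain labelled met30-6 (py283), which carries a temperature-sensitive allele of *MET30*, with a strain labelled PY1. Cultures of both strains reached mid-log phase at 25 °C, which the titles call RT, in the rich medium YPDA. They then spent 1 h either at that temperature, permissive for the met30-6 allele, or at 35 °C, which is not. The 4 groups, PY1 at 25 °C, PY1 at 35 °C, met30-6 at 25 °C and met30-6 at 35 °C, held 2 arrays each. No source used here gives the genotype of PY1, and the met30-6 strain is known only by that label.

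Met30 is the F-box protein of an SCF ubiquitin ligase, which restrains the transcription factor Met4 and is needed for cells to proliferate. Ribonucleotide reductase converts ribonucleotides to deoxyribonucleotides and so supplies the building blocks of DNA. Its large subunit is mainly Rnr1, with Rnr3 as a damage-inducible isoform, and its small subunit is a pair of Rnr2 and Rnr4. *RNR1* is one of the late G1 genes driven by the factor MBF, whereas *RNR2*, *RNR3*, *RNR4* and *HUG1* are held down by Rfx1, also called Crt1, which recruits the corepressor Tup1-Cyc8. When DNA is damaged or replication stalls, the kinases Mec1, Rad53 and Dun1 act in turn. Dun1 then relieves Rfx1 repression and promotes the loss of Sml1, a small protein that binds and inhibits the large subunit.

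Values are the deposited expression values, read as log2, and a difference of 1 is a doubling. Array medians lay between 10.97 and 11.09 and the highest value on any array was 14.51. Over all probe sets, Pearson's r between replicates ran from 0.9927 to 0.9951. *MET30* itself read 11.02 ± 0.050 and 10.98 ± 0.0042 in PY1 at 25 °C and 35 °C and 11.67 ± 0.026 and 13.07 ± 0.060 in met30-6 (SD, n = 2). A temperature-sensitive allele need not change its own transcript, so this does not check the strain labels. Of the markers of mating type, the MATa genes *MFA1*, *MFA2*, *STE2* and *AGA2* read between 10.90 and 13.38 on all arrays, and the MATalpha genes *MF(ALPHA)1*, *MF(ALPHA)2* and *STE3* between 3.12 and 6.55. *BAR1*, also specific to MATa cells, was low as well, at 3.39 to 7.03. Of 5 meiotic markers, the levels ran from 5.20 for *SPO13* to 8.88 for *NDT80*. In PY1 at 25 °C, replicate 1 read above replicate 2 for 7 of the 8 reductase genes, by up to 0.323. It did so for 87% of all genes with a mean above 12, so bright genes at large shared this gap. Values of the 8 genes whose call changed when either of these arrays was left out are also given without it. With single arrays left out, the PY1 rise ran from 0.587 to 0.760 for *RNR1* and from 0.346 to 0.370 for *RFX1*. The strain difference of *HUG1* at 25 °C ran from 0.641 to 0.716.

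**Figure D1:**
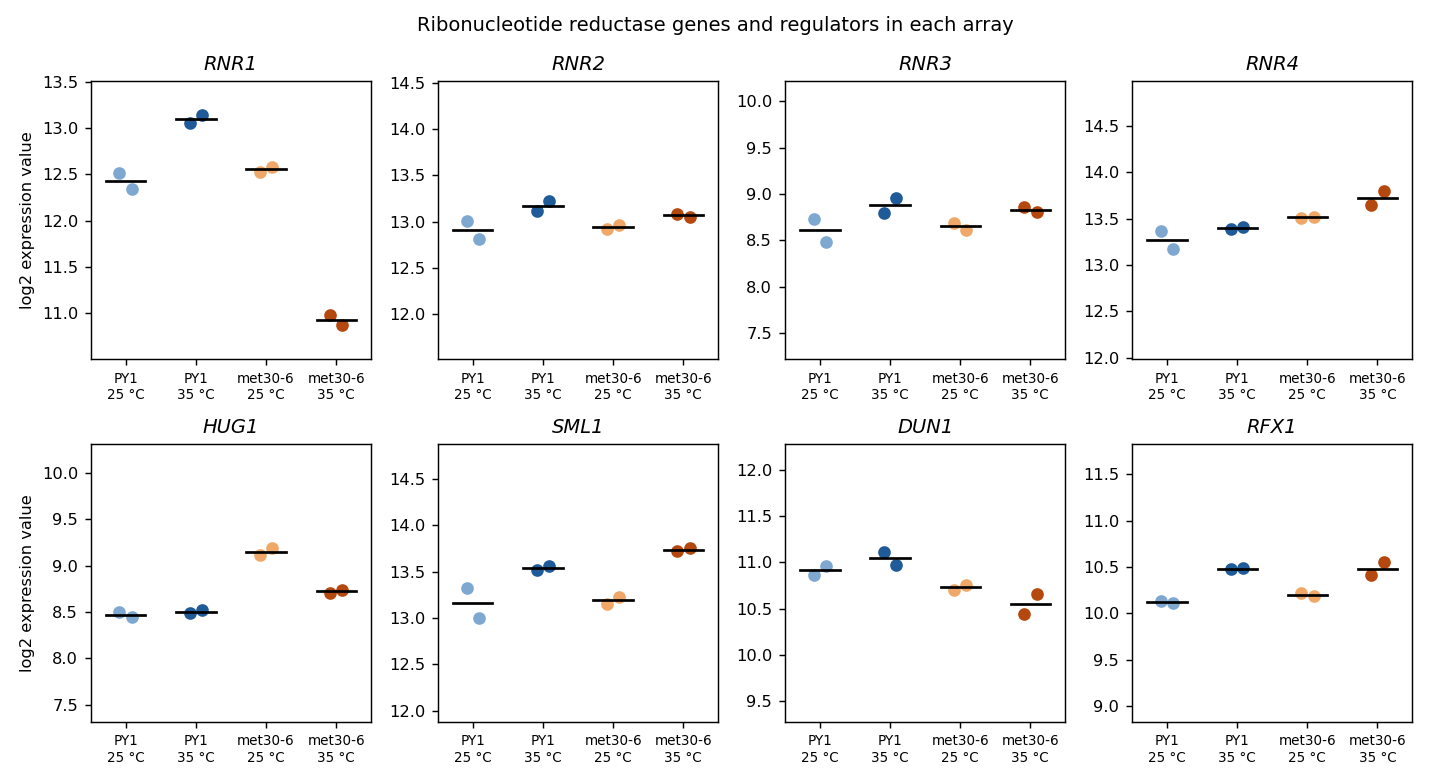
Log2 expression values (y axis, each panel spans the same number of log2 units around its own gene) of the 8 genes in the 4 groups (x axis); points are single arrays, 2 per group, and bars are group means. *RNR1* drops to 10.98 and 10.88 in met30-6 at 35 °C, while the arrays of *RNR2* run only from 12.81 to 13.23 and those of *RNR4* from 13.18 to 13.80.

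Differences were tested with limma across all 5449 genes, and an adjusted p under 0.05 made a call. In PY1, 4 of the 8 genes were higher at 35 °C (5 at an unadjusted p under 0.05) and 0 lower (0 unadjusted). Of all genes 36.7% were called, 26.2% higher and 10.4% lower. In met30-6, 2 were higher and 2 lower, against 68.1% of all genes called, 38.8% higher and 29.3% lower. At 25 °C, 1 gene was higher in met30-6 than in PY1 (2 unadjusted) and 0 lower (0 unadjusted), against 12.9% of all genes called, 6.94% higher and 5.95% lower, a share that 1 gene of 8 does not exceed. At 35 °C, 2 were higher and 2 lower in met30-6, against 66.7% of all genes called, 34% higher and 32.7% lower. In the interaction, which is the response to 35 °C in met30-6 minus that in PY1, 0 were higher (0 unadjusted) and 2 lower (3 unadjusted), against 48.3% of all genes called, 23.7% higher and 24.5% lower. The median over the 8 genes was −0.11 in the interaction and 0.0025 over all genes. Scaling bears on the PY1 background: 71.5% of its calls were higher as deposited, 58.3% with array medians centred and 49.8% after quantile normalisation. The count of called genes in PY1 fell from 4 to 2 when PY1 25 °C replicate 2 or either PY1 array at 35 °C was left out. That for the strains at 35 °C fell from 4 to 2 without PY1 35 °C replicate 1, and that for the strains at 25 °C rose from 1 to 2 without PY1 25 °C replicate 1.

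**Figure D2:**
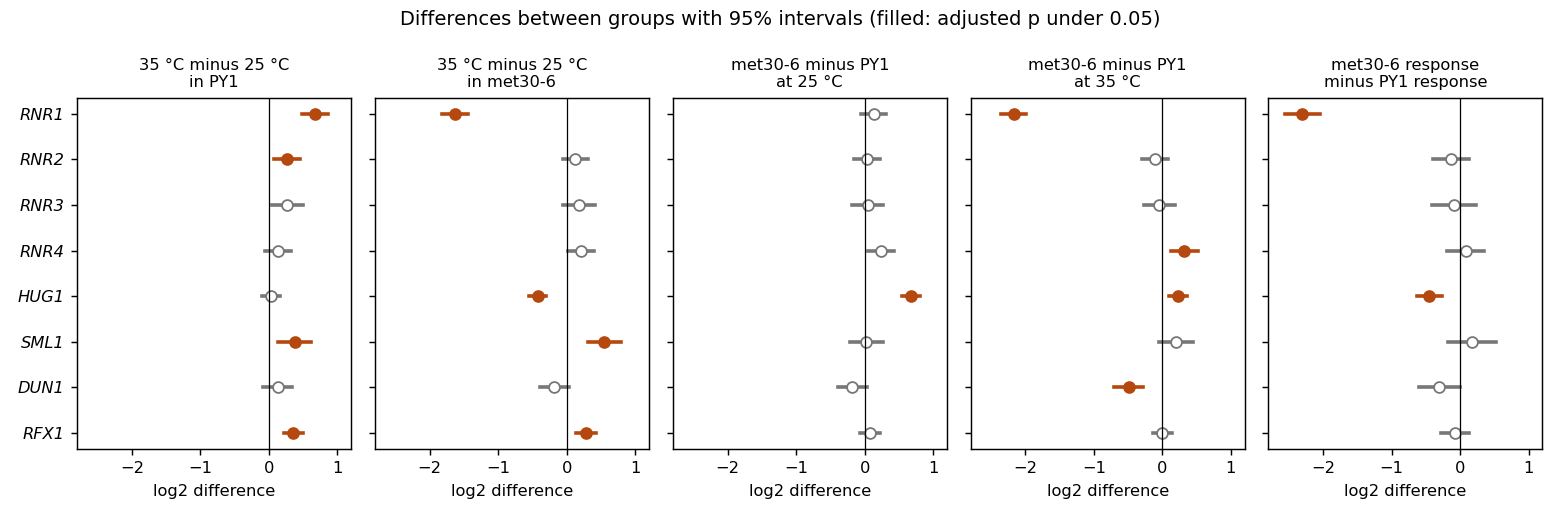
Log2 differences (x axis) of the 8 genes (y axis) in the 5 comparisons, one panel each, with 95% intervals from limma; filled points had an adjusted p under 0.05. The *RNR1* interval in the interaction ends at −2.05, whereas those of *RNR2*, *RNR3* and *RNR4* start at −0.40, −0.41 and −0.20.

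*RNR1*, the main large subunit gene, rose with temperature in PY1 and fell in met30-6. It read 12.51 and 12.34 in PY1 at 25 °C, 13.05 and 13.14 in PY1 at 35 °C, 12.53 and 12.59 in met30-6 at 25 °C, and 10.98 and 10.88 in met30-6 at 35 °C. Both arrays of the last group lay more than 1 log2 unit below every other array, and the PY1 arrays at 35 °C were the highest. The rise in PY1 was 0.67 ± 0.077 (SE; 1.59-fold, adjusted p = 0.00112) and the fall in met30-6 was −1.63 ± 0.077 (3.10-fold, adjusted p = 5.84e-06). Between the strains *RNR1* differed by 0.13 at 25 °C (95% interval −0.050 to 0.317), which was not called, and by −2.17 ± 0.077 at 35 °C (4.50-fold lower in met30-6, adjusted p = 2.18e-06). The interaction was −2.30 ± 0.11 (adjusted p = 3.71e-05), the 17th lowest value of all 5449 genes. These 4 called values passed the test under each of the alternatives run, with the interaction between −2.39 and −2.22. RNA was taken from whole cultures, so fewer cells that express *RNR1* and less *RNR1* RNA per cell cannot be told apart.

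The other late G1 genes of DNA synthesis moved with *RNR1*. Of 16 such genes, 15 were lower in the interaction (15 at an unadjusted p under 0.05) and 0 higher (0 unadjusted), beside 24.5% and 23.7% of all genes, with a median of −1.22. In met30-6 alone 14 fell, beside 29.3% of all genes. In PY1 alone 14 rose, beside 26.2% of all genes, although that count was 9 without PY1 35 °C replicate 2. *CLB6* and *CLB5*, which encode S-phase cyclins, had interaction values of −2.28 and −1.59. *POL1*, which encodes the catalytic subunit of DNA polymerase alpha, stood at −1.94 and *PRI2*, which encodes a subunit of DNA primase, at −1.49. The value of *RNR1* lay just beyond that of *CLB6*, the lowest of the 16, with a gap smaller than the SE of either. In PY1, the rise of *RNR1* (0.67) was also above all 16, of which *POL1* was the highest at 0.59. *CLB6* was the only one of the 16 to fall further than *RNR1* in met30-6, at −1.92.

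**Figure D3:**
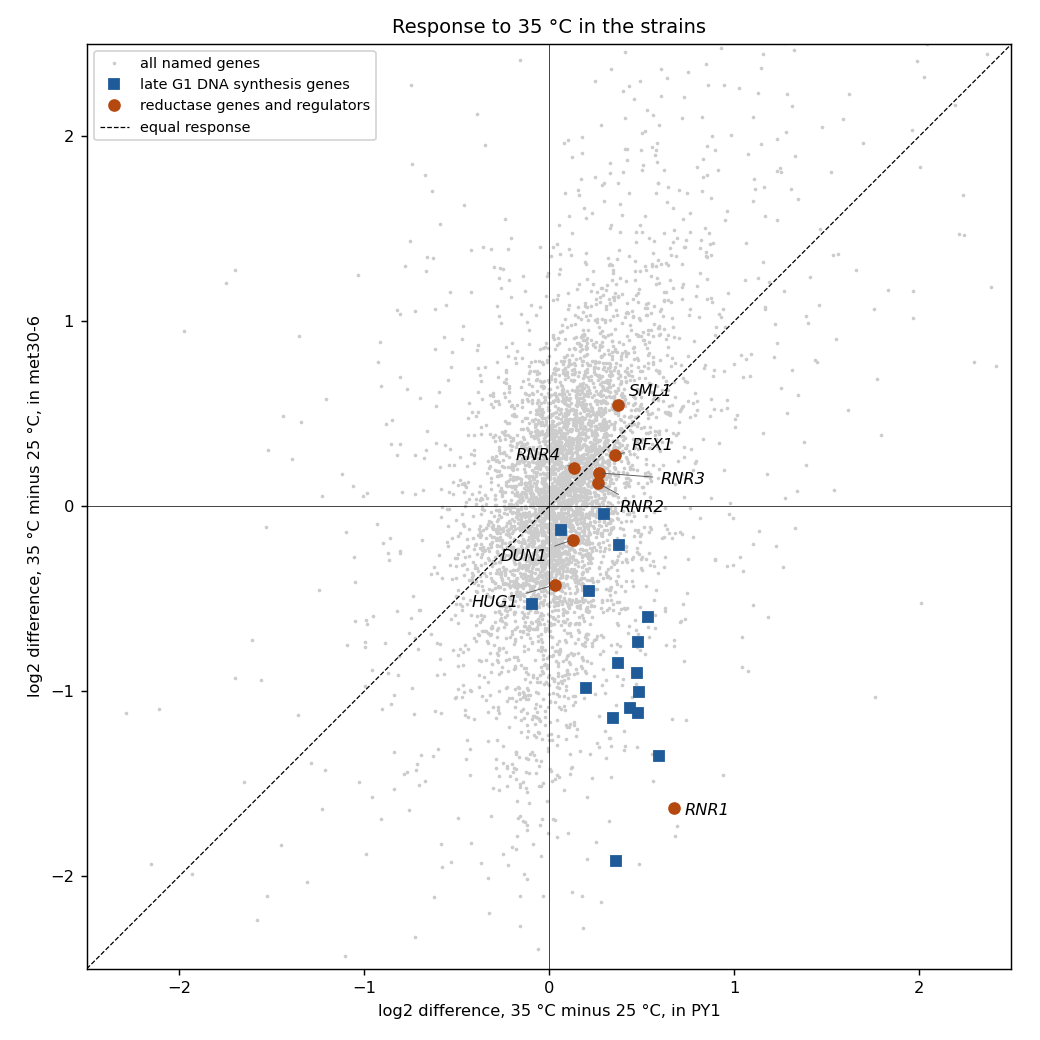
Response to 35 °C in PY1 (x axis) and in met30-6 (y axis), both as log2 differences, for all named genes (grey), 16 late G1 DNA synthesis genes (blue squares) and the 8 reductase genes (orange, labelled); the dashed line marks an equal response, and 85 genes lie outside the axes. *RNR1* (0.67 in PY1, −1.63 in met30-6) lies at the lower right, the side of most late G1 genes, further out than the other 7 genes. *HUG1* (0.031 and −0.42) and *DUN1* (0.13 and −0.18) are on that side too, nearer the centre.

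Likeness of pattern was measured as the root mean square distance between the 4 group means of a subunit gene and those of each of the 5448 other genes, each gene centred on its own mean. The genes closest to *RNR1* were *PCL1*, which encodes a cyclin partner of the kinase Pho85, at 0.087 log2 units, *POL1* at 0.109 and *TOS6* at 0.123. *PCL1* was the only gene within 0.1 of *RNR1*. By contrast 595 genes lay within 0.1 of *RNR2*, 629 within 0.1 of *RNR3* and 463 within 0.1 of *RNR4*, whose patterns were flatter. The 3 closest were *MDM10* (0.013), *SUM1* (0.013) and *GMC1* (0.017) for *RNR2*, *CDC31* (0.0099), *VAC14* (0.013) and *NUP188* (0.013) for *RNR3*, and *MMS22* (0.017), *IPP1* (0.024) and *ERG27* (0.024) for *RNR4*. These distances were below the SE of a heat difference for *RNR2* (0.079), *RNR3* (0.096) and *RNR4* (0.081). The order among genes this close is therefore not resolved.

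*RNR3*, the gene of the damage-inducible large subunit, was not called in any of the 5 comparisons. It read 8.73 and 8.48 in PY1 at 25 °C, 8.80 and 8.95 in PY1 at 35 °C, 8.69 and 8.61 in met30-6 at 25 °C, and 8.86 and 8.81 in met30-6 at 35 °C. In both strains the 2 arrays at 35 °C read above the 2 at 25 °C, by small amounts. The difference was 0.27 ± 0.096 in PY1 (adjusted p = 0.0689) and 0.18 ± 0.096 in met30-6 (adjusted p = 0.135), and the latter became −0.040 after quantile normalisation. With only the met30-6 arrays fitted it passed the test at the same size (adjusted p = 0.0394, in a range of 0.0394 to 0.606). The value in PY1 passed the test without PY1 25 °C replicate 1 (0.39, adjusted p = 0.0203, in a range of 0.0203 to 0.292 over its alternatives). At 0.27 it also passed with genes of a mean under 6 left out and with crossed replicate numbers as a block. The interaction was −0.087, with a 95% interval from −0.41 to 0.24, which does not reach a value as large as that of *RNR1*. The interval bounds the array values only. *RNR3* read near the meiotic markers *IME2* (8.13 to 8.54) and *NDT80* (7.70 to 8.88), and no detection call was analysed. Whether its signal stood above background, where a change of the RNA could be read in full, was not tested.

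The small subunit genes changed little. *RNR2* read 13.01 and 12.81 in PY1 at 25 °C, 13.12 and 13.23 in PY1 at 35 °C, 12.92 and 12.97 in met30-6 at 25 °C, and 13.09 and 13.05 in met30-6 at 35 °C. The arrays at 35 °C were again above those at 25 °C in each strain. The rise in PY1, 0.26 ± 0.079, was called (adjusted p = 0.0393), but among the single arrays left out the call held only without PY1 25 °C replicate 1. It ended without PY1 25 °C replicate 2 (0.16), without PY1 35 °C replicates 1 and 2 (0.32 and 0.21) and, at an unchanged 0.26, without any one of the met30-6 arrays, with only the PY1 arrays fitted and with a replicate block, with adjusted p between 0.0139 and 0.184 over all alternatives. Quantile normalisation gave 0.14 and kept the call. In met30-6 the difference was 0.13 ± 0.079 (adjusted p = 0.19), and after quantile normalisation it was −0.17 and called (adjusted p = 0.00704, in a range of 0.00704 to 0.44). The interaction of *RNR2* was −0.14 (95% interval −0.40 to 0.13) and not called, but at −0.31 it was called after quantile normalisation (adjusted p = 0.00397, in a range of 0.00397 to 0.769). So was the strain difference at 35 °C, which moved from −0.10 to −0.33 (adjusted p = 0.000386, in a range of 0.000386 to 0.677).

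*RNR4*, which encodes the partner of Rnr2, read 13.37 and 13.18 in PY1 at 25 °C, 13.39 and 13.42 in PY1 at 35 °C, 13.51 and 13.52 in met30-6 at 25 °C, and 13.65 and 13.80 in met30-6 at 35 °C. The met30-6 arrays lay above the PY1 arrays at each temperature. The strain difference was 0.24 ± 0.081 at 25 °C (adjusted p = 0.104) and 0.32 ± 0.081 at 35 °C (1.25-fold, adjusted p = 0.0112). The first passed the test without PY1 25 °C replicate 1 (0.34, adjusted p = 0.0454, in a range of 0.0454 to 0.313). The second did not pass without met30-6 35 °C replicate 2 (0.25), without PY1 35 °C replicate 1 (0.31) or after quantile normalisation (0.096), with adjusted p from 0.00336 to 0.115 over its alternatives. The response to 35 °C was 0.13 in PY1 and 0.21 in met30-6, neither called. The latter had adjusted p = 0.0544. It passed without PY1 25 °C replicate 1 or 2 (0.21) and without met30-6 35 °C replicate 1 (0.28). At 0.21 it also passed with an intensity trend in the variance, with genes of a mean under 6 left out and with only the met30-6 arrays fitted, in a range of adjusted p of 0.0262 to 0.422. It was −0.045 after quantile normalisation. The interaction was 0.078, with a 95% interval from −0.20 to 0.35.

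Within each array, *RNR1* was set against the other subunit genes, with each ratio at 0 for the mean of PY1 at 25 °C. The log2 ratio of *RNR1* to *RNR2* was 0.42 and 0.40 in PY1 at 35 °C, 0.10 and 0.10 in met30-6 at 25 °C, and −1.62 and −1.69 in met30-6 at 35 °C. The ratio to *RNR4* was −1.83 and −2.07 in met30-6 at 35 °C, and that of the large subunit genes *RNR1* and *RNR3* to each other was −1.69 and −1.75. These ratios do not depend on the scaling of whole arrays by a constant, and no test was run on them. They show unequal change of the array values and give no ratio of the proteins. For *RNR3*, as given above, whether a change of the RNA could be read in full was not tested.

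The inhibitor genes *SML1* and *HUG1*, which lie next to each other with 0 protein-coding genes between them in the R64 gene table, went different ways. *SML1* read 13.33 and 13.00 in PY1 at 25 °C, 13.52 and 13.56 in PY1 at 35 °C, 13.16 and 13.23 in met30-6 at 25 °C, and 13.72 and 13.76 in met30-6 at 35 °C. In each strain both arrays at 35 °C exceeded both at 25 °C. The rise in met30-6 was 0.55 ± 0.10 (1.46-fold, adjusted p = 0.00282) and passed under each of the alternatives run, although after quantile normalisation it was 0.27. That in PY1 was 0.38 ± 0.10 (1.30-fold, adjusted p = 0.0292). It did not pass without PY1 25 °C replicate 2 (0.21) or without PY1 35 °C replicates 1 and 2 (0.40 and 0.35), or with only the PY1 arrays fitted (0.38), with adjusted p from 0.00337 to 0.125 over its alternatives, and it was 0.23 after quantile normalisation. The interaction was 0.17 (95% interval −0.17 to 0.52) and was not called, but without PY1 25 °C replicate 2 it was 0.335 and called (adjusted p = 0.0208, in a range of 0.0208 to 0.918). At 35 °C the strains differed by 0.20 ± 0.10 (adjusted p = 0.127), a value that passed without PY1 25 °C replicate 1 or 2 (0.20), with only the 35 °C arrays fitted (0.20) and with array medians centred (0.27), in a range of adjusted p of 0.0164 to 0.854. The *SML1* transcript is not the point at which Dun1 acts, which is the protein, and no protein was measured.

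*HUG1*, which encodes a small protein that restrains the reductase through its small subunit, was the only one of the 8 genes called between the strains at 25 °C. It read 8.50 and 8.44 in PY1 at 25 °C, 8.49 and 8.52 in PY1 at 35 °C, 9.11 and 9.19 in met30-6 at 25 °C, and 8.71 and 8.74 in met30-6 at 35 °C. Every met30-6 array was above every PY1 array, and the highest were those of met30-6 at the permissive temperature. The strain difference at 25 °C was 0.68 ± 0.054 (1.60-fold, adjusted p = 0.000352), the 167th highest of all genes. At 35 °C it was smaller, 0.22 ± 0.054 (adjusted p = 0.00907), and did not pass without PY1 35 °C replicate 1 (0.21), with an intensity trend in the variance (0.22) or after quantile normalisation (0.077), in a range of 0.0018 to 0.18. From 25 °C to 35 °C *HUG1* fell by 0.42 ± 0.054 in met30-6 (adjusted p = 0.00045), and by 0.64 after quantile normalisation. In PY1 the difference was 0.031 ± 0.054, which was not called and turned to −0.025 with array medians centred. The PY1 values of *HUG1*, 8.44 to 8.52, lay within the range of the meiotic marker *IME2* (8.13 to 8.54). As for *RNR3*, whether that signal stood above background was not tested. The interaction, −0.46 ± 0.076 (adjusted p = 0.00309), passed under each alternative run, between −0.50 and −0.39. *RNR3* and *RNR2*, which share the repressor Rfx1 with *HUG1*, differed between the strains at 25 °C by 0.043 and 0.031, with 95% intervals from −0.19 to 0.27 and from −0.16 to 0.22. Neither interval reaches that of *HUG1*, which starts at 0.55. *RNR4*, also under Rfx1, differed in the direction of *HUG1*, by 0.24 (95% interval 0.048 to 0.435), and as given above passed the test only without PY1 25 °C replicate 1. The *HUG1* and *SML1* probe sets thus moved apart within arrays: with PY1 at 25 °C set to 0, the log2 ratio of *HUG1* to *SML1* was 0.65 and 0.65 in met30-6 at 25 °C. At 35 °C it was below 0 in both strains, at −0.34 and −0.35 in PY1 and −0.32 and −0.32 in met30-6.

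*DUN1*, the kinase gene, was lower in the met30-6 strain at 35 °C. It read 10.87 and 10.96 in PY1 at 25 °C, 11.11 and 10.97 in PY1 at 35 °C, 10.70 and 10.76 in met30-6 at 25 °C, and 10.44 and 10.66 in met30-6 at 35 °C. At each temperature both met30-6 arrays were below both PY1 arrays. The difference was −0.18 ± 0.089 at 25 °C (adjusted p = 0.244) and −0.49 ± 0.089 at 35 °C (1.40-fold lower, adjusted p = 0.00251), and the latter passed under each alternative run. The response to heat was 0.13 in PY1 and −0.18 in met30-6, neither called. The interaction was −0.31 ± 0.13 (adjusted p = 0.0836), and both the heat response in met30-6 (−0.29) and the interaction (−0.42) were called without met30-6 35 °C replicate 2, with adjusted p from 0.0353 to 0.506 and from 0.0294 to 0.232 over the alternatives. At an unchanged size both were also called with crossed replicate numbers as a block, and the interaction with an intensity trend in the variance.

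*RFX1*, the repressor gene, rose with temperature in both strains. It read 10.14 and 10.11 in PY1 at 25 °C, 10.48 and 10.49 in PY1 at 35 °C, 10.22 and 10.19 in met30-6 at 25 °C, and 10.41 and 10.55 in met30-6 at 35 °C. In each strain the arrays at 35 °C lay above those at 25 °C. The rise was 0.36 ± 0.060 in PY1 (1.28-fold, adjusted p = 0.00507) and 0.28 ± 0.060 in met30-6 (1.21-fold, adjusted p = 0.00557), and both passed under each alternative run. The interaction was −0.081 (95% interval −0.28 to 0.12), and the strains differed by 0.080 at 25 °C and −0.0005 at 35 °C, with no call. The sign of the interaction turned after quantile normalisation (0.041).

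Around these genes, further lists of the pathway were counted in the interaction. Of 14 checkpoint genes, 7 were lower (8 at an unadjusted p under 0.05) and 0 higher (0 unadjusted), beside 24.5% and 23.7% of all genes, with a median of −0.36. *TOF1*, of the complex that stabilises stalled forks, stood at −1.40, the effector kinase gene *RAD53*, which acts upstream of Dun1, at −1.21, the replication checkpoint adaptor gene *MRC1* at −0.82 and the clamp gene *RAD17* at −0.63. *RAD53* rose in PY1 and fell in met30-6, from 9.51 ± 0.0064 to 9.99 ± 0.014 and from 9.53 ± 0.042 to 8.81 ± 0.11 (SD, n = 2). The sensor kinase genes *MEC1* and *TEL1* had values of 0.023 and 0.25 and were not called. Without PY1 35 °C replicate 2, 1 checkpoint gene was called higher, and 2 were after quantile normalisation.

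Among 9 genes of transcription factors and corepressors that act on the *RNR* genes, 4 were lower (6 unadjusted) and 0 higher (0 unadjusted), beside 24.5% and 23.7% of all genes, with a median of −0.30. *NRM1*, which encodes the corepressor of MBF and is itself an MBF target, had −1.70. *CYC8* and *TUP1*, the corepressor genes through which Rfx1 acts, had −0.78 and −0.40, and *MOT3*, another repressor gene, −0.38. The call of *TUP1* ended without met30-6 25 °C replicate 1 (−0.39) and without met30-6 35 °C replicate 2 (−0.36), in a range of adjusted p of 0.0029 to 0.0567. That of *MOT3* ended without met30-6 25 °C replicate 1 (−0.31), met30-6 35 °C replicate 1 (−0.36) and PY1 35 °C replicate 2 (−0.33), in a range of adjusted p of 0.00859 to 0.059. The count of 4 was 2 without met30-6 25 °C replicate 1. *MBP1*, *SWI6* and *SWI4*, which encode the subunits of MBF and SBF, had values of −0.20, −0.30 and −0.15 and were not called.

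Of 8 genes whose products act on the location, cofactor or assembly of the small subunit, 3 were higher and 2 lower, beside 23.7% and 24.5% of all genes, so that the lower count is at the background. *WTM1*, which encodes a nuclear anchor of the small subunit, rose in met30-6 by 1.01 and had an interaction of 0.76. *KAP122*, which encodes its nuclear importer, fell in met30-6 by 0.62, with an interaction of −0.67. *GRX3*, of iron cofactor delivery, had 0.65 (0.40 after quantile normalisation), and *DRE2*, of the same function, 0.36, a call that ended without met30-6 25 °C replicate 2 (0.35, adjusted p = 0.051, in a range of 0.00173 to 0.051). The positive value of *DRE2* stood for a smaller fall and not for a rise. Its difference from 25 °C to 35 °C was −0.55 in PY1 and −0.19 in met30-6. It was also lower in met30-6 than in PY1, by −0.61 at 25 °C and −0.25 at 35 °C. *DIF1*, which encodes the import factor that Dun1 also targets, had −0.25 and was not called. The other lower gene was *GRX4* (−0.30), and the count of 2 became 1 without any one of PY1 35 °C replicate 2 and the 4 met30-6 arrays.

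The other enzymes of deoxynucleotide supply went mostly with *RNR1*. Of 9 genes, 6 were lower and 1 higher, beside 24.5% and 23.7% of all genes, with a median of −0.52. *CDC21*, which encodes thymidylate synthase, had −1.27, *DCD1*, of deoxycytidylate deaminase, −1.08, and *DUT1*, of dUTPase, −0.79. *YNK1*, of nucleoside diphosphate kinase, had 0.61, and 0.39 after quantile normalisation. Genes of the thioredoxin and glutaredoxin systems, which hand electrons to the reductase, went the other way, with 5 of 7 higher (5 unadjusted; 23.7% of all genes), 0 lower (0 unadjusted) and a median of 0.47. The glutaredoxin genes *GRX2* and *GRX1* had 0.74 and 0.72, the thioredoxin gene *TRX2* 0.47 and the glutathione reductase gene *GLR1* 0.50. These genes also serve other pathways of thiol reduction. The call of *GLR1* ended without PY1 35 °C replicate 1 (0.42), met30-6 25 °C replicate 1 (0.48) and met30-6 35 °C replicate 2 (0.49), in a range of adjusted p of 0.00245 to 0.0626, and without each of these arrays the count of 5 was 3.

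Other genes induced by DNA damage did not move as one. Of 8 measured, 4 were higher and 2 lower in the interaction, beside 23.7% and 24.5% of all genes, and the median was 0.42. The lower count is at the background. *MAG1*, which encodes a DNA glycosylase, had 0.91, *RAD2*, of nucleotide excision repair, 0.89, and the polyubiquitin gene *UBI4*, which also answers to heat, 0.86. *PLM2*, a damage-inducible gene that is also a late G1 gene, had −1.78. It rose by 1.18 in PY1 and fell by 0.60 in met30-6, where quantile normalisation gave −1.03. *DIN7*, the other lower gene, had −0.69, with a rise of 0.32 in PY1 and a fall of 0.38 in met30-6. At 25 °C it was the only gene of the 8 called between the strains, beside 12.9% of all genes. It was higher in met30-6 by 0.79, and *HUG1* by 0.68.

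**Figure D4:**
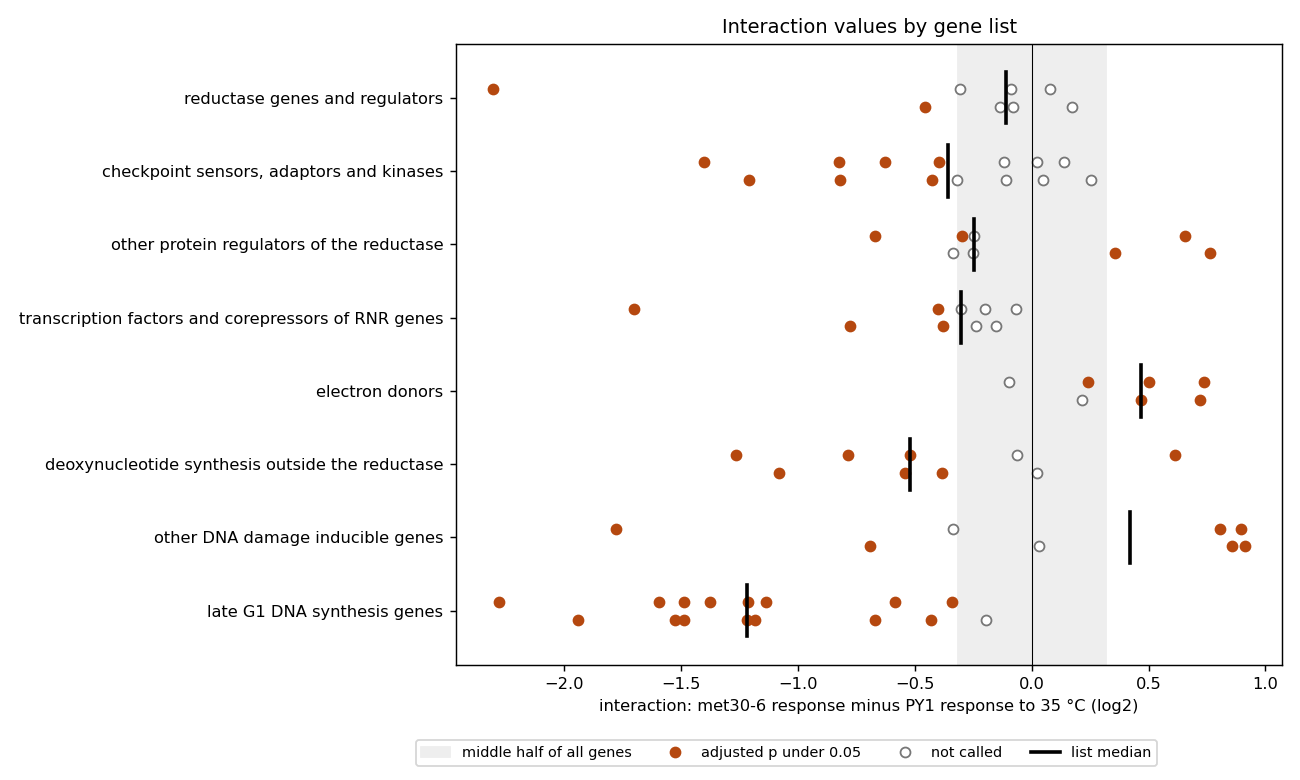
Interaction values (x axis, log2) of each measured gene of the reductase group and of 7 related lists (y axis); filled points had an adjusted p under 0.05, black bars are list medians and the grey band is the interquartile range of all genes (−0.32 to 0.32). The median is −1.22 for late G1 genes, −0.52 for other deoxynucleotide genes and 0.47 for electron donors, against −0.11 for the reductase group, where 6 of 8 genes were not called.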

How the data were processed

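The authors deposited 1 table of processed values, with 5716 probe sets and a column for each of 8 arrays. The authors' deposited values were taken as log2, since they reached 14.51 with medians near 11, and every fold rests on that base. No source used here gives the background correction, the summarisation, the scaling or a filter. No detection call was analysed, and the number of arrays limits the precision. Groups and replicate numbers came from the sample titles. The labels do not say that replicates were separate cultures, so the p-values reflect the spread between the arrays at hand, which may be technical.

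Probe sets were named through the platform's annotation, with 12 symbols updated through a gene table of the R64 assembly, which served only for names and neighbours. One symbol was found for 5498 probe sets, several for 0 and none for 218. For 47 genes with several probe sets the one with the highest mean was kept, which left 5449 genes. A mean for each of 4 groups was fitted with limma 3.58.1 in R 4.3.3 (lmFit, eBayes; 4 residual and 2.7 prior degrees of freedom). Two-sided p-values of each of 5 contrasts had the Benjamini-Hochberg adjustment over all 5449 genes. The procedure was tested on simulated data with independent noise for each gene and array. Those data hold no shift shared by an array, so they cannot speak to the scaling. The genes, lists and tests were chosen with earlier results of these data known. Of the 8 lists, all members of the first, and from each other list up to 4 genes with the lowest adjusted p in the interaction and up to 2 in the met30-6 heat response, are named. Genes of like pattern are the 3 closest to each subunit gene. Genes named beyond this rule (*MEC1*, *TEL1*, *MBP1*, *SWI6*, *SWI4*, *DIF1*, *GRX4*, *DIN7*) were chosen after their values were seen. Alternatives were other scalings, a filter on genes with a mean under 6, other handling of probe sets, another variance model, fewer arrays and a replicate block.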

Additional observations from a re-analysis of the deposited data

Results flagged for a closer look

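The response to 35 °C differed between the strains by limma's interaction test for *RNR1* and *HUG1*. *RNR1* had an interaction of −2.30: it rose by 0.67 in PY1 and fell by 1.63 in met30-6, with the same direction on both arrays of each group. *HUG1* had an interaction of −0.46: it moved by 0.031 in PY1 and fell by 0.42 in met30-6, from a level that was already higher in met30-6 at 25 °C. Whether its signal in PY1 stood above background was not tested. Groups of 2 arrays are too small for a check on single outlying arrays.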

How the results depend on the processing

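Over 672 repeats of the values of the 8 genes, 607 kept their direction and side of the threshold, 23 more passed, 19 no longer passed and 23 turned sign. Many of these repeats could not move the difference itself, only its adjusted p. These were the other handling of probe sets, the filter, the variance model and the replicate blocks. Fits of only the groups compared and arrays left out of other groups also kept the difference as it was. The count of called genes in PY1 was 2 with only the arrays of the groups compared and 2 to 5 with single arrays left out, that for the strains at 25 °C 1 to 2, and that for the strains at 35 °C 2 to 5. Quantile normalisation turned the met30-6 heat values of *RNR2* (−0.173), *RNR3* (−0.040) and *RNR4* (−0.045), the PY1 heat value of *HUG1* (−0.140), the interactions of *RNR4* (−0.050) and *RFX1* (0.041), the 25 °C strain differences of *RNR2* (−0.021), *RNR3* (−0.00725) and *SML1* (−0.051), and the 35 °C strain differences of *SML1* (−0.0099) and *RFX1* (0.118). Centred medians turned *HUG1* in PY1 (−0.025) and, at 35 °C, *RNR3* (0.023) and *RFX1* (0.066). The cause was not tested. With single arrays left out, the 25 °C strain differences ran from −0.069 to 0.131 for *RNR2*, −0.082 to 0.168 for *RNR3* and −0.1355 to 0.1875 for *SML1*, those at 35 °C from −0.122 to 0.034 for *RNR3* and −0.069 to 0.068 for *RFX1*, and the interactions from −0.212 to 0.038 for *RNR3* and −0.0195 to 0.1755 for *RNR4*. Over all genes, PY1 calls fell from 1998 to 1119 without PY1 35 °C replicate 2 and to 1298 without replicate 1. Calls between the strains at 25 °C went from 702 to 368 and 374 without met30-6 25 °C replicates 1 and 2, to 411 with only the groups compared and to 1064 after quantile normalisation. The difference of replicate 1 minus replicate 2 was correlated across genes between groups, with r between −0.182 and 0.109 over 6 pairs of groups. This cannot show whether same-numbered arrays share a batch, and the labels give only the number. With a replicate block 3, 4, 1, 4 and 2 of the 8 genes were called in PY1 heat, met30-6 heat, the strains at 25 °C and 35 °C and the interaction, and the call of *RNR2* in PY1 was lost (0.26, adjusted p = 0.068). With the numbers of PY1 35 °C crossed, chosen after seeing the data, these counts were 5, 5, 1, 4 and 3.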
